A study of Homo sapiens with 12 samples.

Results

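The 9 guide strands of the let-7 family, listed as hsa-let-7a-5p, hsa-let-7b-5p, hsa-let-7c-5p, hsa-let-7d-5p, hsa-let-7e-5p, hsa-let-7f-5p, hsa-let-7g-5p, hsa-let-7i-5p and hsa-miR-98-5p and written below without the species prefix, were followed in human cells that carried wild-type or mutant DICER. They were taken by name from 1346 miRNA entries, and all 9 were present and passed the filter on low counts. The cells were HCT116, an established human colorectal carcinoma line, and small RNA was sequenced by AQ-seq, a library method made to lower ligation bias. Total RNA from 6 groups was sequenced in 2 libraries each, 12 in all, and in every group, WT included, the labels describe the DICER as a rescue. The groups were WT and the mutants R821E, R821A, E5, A5 and ΔPAZ helix. By their names, ΔPAZ helix lacks a helix of the PAZ domain, and in R821E and R821A an arginine is replaced by glutamate or by alanine. What E5 and A5 change, how the rescue was made, whether a line is a single clone and what DICER the host cells still had were not given in the sources used here.

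let-7 miRNAs are among the most conserved of animal miRNAs. They accumulate as cells differentiate and repress RAS genes, HMGA2, MYC and LIN28, and in many tumours they are low. DROSHA releases a precursor hairpin, DICER cuts off its loop, and Argonaute usually keeps the 5p strand as the guide. let-7 precursors fall into 2 classes by their 3′ end. Group I precursors, let-7a-2, let-7c and let-7e, leave DROSHA with the overhang that DICER binds well. The rest, group II, leave it with a shortened overhang and are mono-uridylated by TUT enzymes before dicing, a step that LIN28 turns into decay by promoting a long U tail.

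The 9 strands are shown because they share a seed and differ at few other bases, which bears on how far single members can be told apart in sequencing. They are the mature sequences of RefSeq (GRCh38.p14), written 5′ to 3′ with the seed, bases 2 to 8, in capitals, and all 9 members matched.
let-7a-5p: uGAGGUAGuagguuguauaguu
let-7b-5p: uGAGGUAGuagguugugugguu
let-7c-5p: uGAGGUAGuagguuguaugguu
let-7d-5p: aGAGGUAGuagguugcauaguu
let-7e-5p: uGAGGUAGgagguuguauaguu
let-7f-5p: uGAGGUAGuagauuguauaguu
let-7g-5p: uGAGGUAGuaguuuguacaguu
let-7i-5p: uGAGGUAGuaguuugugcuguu
miR-98-5p: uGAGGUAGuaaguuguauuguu
All are 22 bases long with the seed GAGGUAG. Counted from the 5′ end and against let-7a-5p, let-7e-5p differs by U9G, let-7f-5p by G12A and let-7c-5p by A19G. let-7b-5p differs by A17G and A19G, let-7d-5p by U1A and U16C, let-7g-5p by G12U and U18C, and miR-98-5p by G11A and A19U. let-7i-5p is farthest, with G12U, A17G, U18C and A19U. Of the 36 pairs of members, 4 differ at 1 base and 10 at 2 bases. How the authors counted reads that match several members was not given in the sources used here, and each single member is uncertain, least so for sums over the family. The seed GAGGUAG stands at bases 2 to 8 of 11 of the 2370 mature miRNAs in the RefSeq table. The other 2 are miR-4458 and miR-4500. miR-4458 had 1 count in each R821E library and 0 in the other 10, which allows up to 3 counts in each, and miR-4500 was not among the 1346 miRNA entries.

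The 9 strands come from 12 hairpins, and the opposite strands are shown because they separate the precursor groups. The last 10 bases of each 3p strand are in capitals.
let-7a-2-3p (group I): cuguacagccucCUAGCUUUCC
let-7c-3p (group I): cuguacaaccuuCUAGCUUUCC
let-7e-3p (group I): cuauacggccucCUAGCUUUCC
let-7a-3p (group II, from let-7a-1 and let-7a-3): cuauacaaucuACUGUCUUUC
let-7b-3p (group II): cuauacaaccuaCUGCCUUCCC
let-7i-3p (group II): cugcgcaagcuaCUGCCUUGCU
miR-98-3p (group II): cuauacaacuuaCUACUUUCCC
All 3 group I hairpins end their 3p strand in CUAGCUUUCC, and 0 of the 8 group II hairpins with a listed 3p strand do. Searched as written, on the sense strand only, this ending occurred in 3 of the 2370 mature miRNAs of the table, the same 3. The arms are separated by 23 bases in each group I hairpin and by 26 to 36 bases in the group II hairpins, which gives precursors of 67 and of 69 to 80 bases from the start of the 5p to the end of the 3p strand.

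The hairpins lie at 8 places in the genome (GRCh38, with host genes of GENCODE release 29 on the same strand). let-7a-1 (chr9:94175957-94176036), let-7f-1 (chr9:94176347-94176433) and let-7d (chr9:94178834-94178920) follow each other in an intron of the long non-coding RNA gene AL158152.2. let-7a-3 (chr22:46112749-46112822) and let-7b (chr22:46113686-46113768) lie in exonic sequence of MIRLET7BHG, and miR-98 (chrX:53556223-53556341) and let-7f-2 (chrX:53557192-53557274) in an intron of HUWE1. let-7g (chr3:52268278-52268361) lies in an intron of WDR82 and let-7i (chr12:62603686-62603769) in an intron of AC048341.1. Each group I hairpin has miR-99, miR-100 or miR-125 hairpins beside it. let-7a-2 (chr11:122146522-122146593) lies in an intron of MIR100HG, let-7c (chr21:16539828-16539911) in an intron of MIR99AHG, and let-7e (chr19:51692786-51692864) in an intron of SPACA6, 105 bases from miR-99b and 390 bases from miR-125a. let-7a-5p is therefore made by hairpins of both groups, and only let-7c-5p and let-7e-5p report on group I alone.

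Depth ranged from 144067 to 255296 miRNA counts a library, with 9529 to 14969 counts of 30 spike-in sequences beside them. Of 8 epithelial and intestinal miRNAs, all 8 were detected, with a sum of 2746 to 2967 in 1000000 miRNA counts in WT and 942 to 2950 in the mutants. Summed levels of marker miRNAs of other cell types were, in the same unit, 142 to 305 for 2 erythroid, 125 to 537 for 4 leukocyte, 526 to 972 for 2 neuronal, 179 to 665 for 2 fibroblast and smooth muscle and 65.4 to 483 for 1 endothelial miRNA. The hepatocyte miRNA and the 1 muscle miRNA in the tables reached at most 10.3 and 4.45. WT replicates differed from each other more than those of any other group, with a chi-square per degree of freedom of 31.2 against 4.43 to 18.2. The labels do not say whether a group's 2 libraries are separate cultures. The p-values therefore measure only how far these samples spread, and that spread may be technical.

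The family as a whole took a smaller part of the miRNA pool in all 10 mutant libraries than in the WT libraries. From low to high, the 9 strands summed to 1.33% ± 0.0346 (SD, n = 2) of the miRNA counts for R821E, 1.70% ± 0.102 for R821A, 1.85% ± 0.0780 for E5, 2.17% ± 0.0835 for A5, 2.37% ± 0.0472 for ΔPAZ helix and 2.92% ± 0.400 for WT. The WT libraries were at 2.64% and 3.21%, and the 10 mutant libraries between 1.31% and 2.40%. Wilson 95% intervals of these shares reach at most 0.0695 percentage points to each side and, as amplified reads with no molecular identifier are not independent, cover only the error of counting. Set against the spike-ins, the sum per 1000 spike-in counts was 191 ± 13.4 for R821E, 317 ± 29.2 for E5, 335 ± 66.6 for R821A, 400 ± 19.9 for A5, 455 ± 54.4 for ΔPAZ helix and 712 ± 170 for WT, and again no mutant library reached a WT library. The same held for all miRNA counts together, at 22.4 and 25.9 per spike-in count in WT and 13.4 to 21.5 in the mutant libraries. On the TMM scale, which discounts the few most abundant miRNAs, the ranges of the family sum overlapped for ΔPAZ helix, with sums of 24261 and 22251 CPM (defined below) against 22962 and 30252 in WT, and the other 8 mutant libraries were lower, at 14608 to 20952. No test is given for sums over the family, since its members were chosen with earlier results of these data known.

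Single strands are given in CPM, the count in 1000000 after each library's miRNA total is multiplied by its TMM factor, which sets each miRNA against the bulk of the others. "Fell" and "higher" refer to that scale unless the spike-in scale is named. Each fold change was tested with edgeR's quasi-likelihood test over 374 entries, with Benjamini-Hochberg adjustment and a threshold of 0.05. The fit took 1 estimate of the spread for each entry from all 12 libraries, so the wider spread of the WT pair was averaged with that of the other groups. A comparison of 2 libraries with 2 by exact permutation cannot go below p = 0.333, so no single value was tested that way. All 5 mutants are compared with the same 2 WT libraries, so their falls are not independent of each other.

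**Figure D1:**
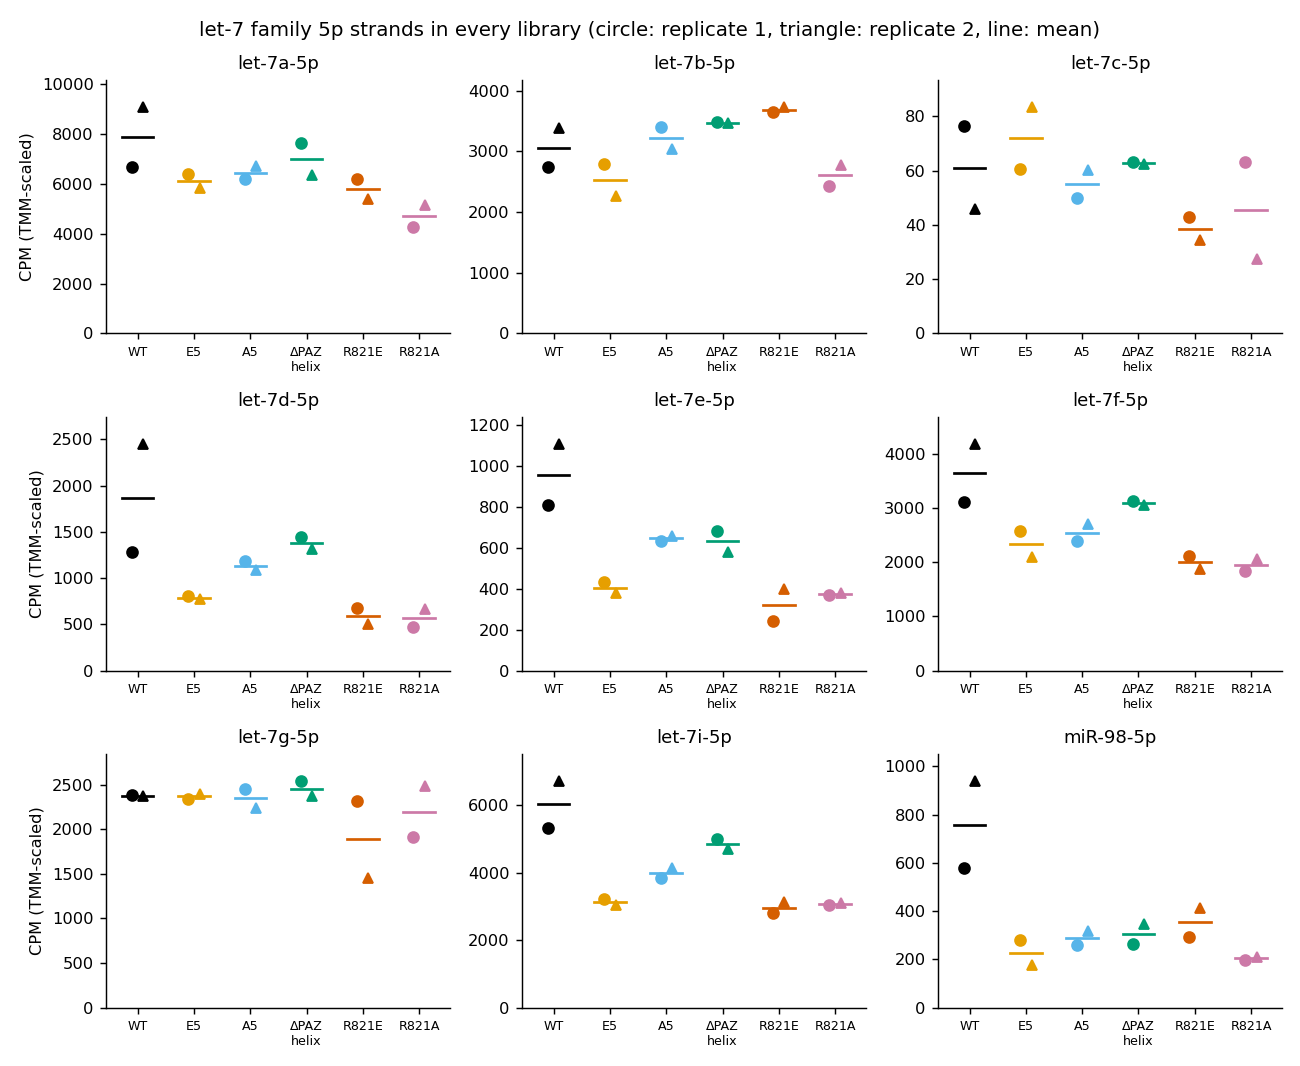
Each panel shows the level of a let-7 family 5p strand in CPM (TMM-scaled, axis from 0) in all 12 libraries, with DICER group on the horizontal axis, circles for replicate 1, triangles for replicate 2 and lines for group means. let-7i-5p, let-7e-5p and miR-98-5p lie below both WT libraries in every mutant library, while let-7b-5p and let-7g-5p overlap WT in several groups.

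In WT the order of levels was let-7a-5p at 7858 ± 1712 CPM (SD, n = 2), let-7i-5p at 6031 ± 973, let-7f-5p at 3641 ± 760, let-7b-5p at 3056 ± 453, let-7g-5p at 2376 ± 9.11, let-7d-5p at 1868 ± 822, let-7e-5p at 957 ± 211, miR-98-5p at 759 ± 254 and let-7c-5p at 61.0 ± 21.6. Across the WT libraries the CPM ranges of let-7a-5p and let-7i-5p overlapped, as did those of let-7f-5p and let-7b-5p, of let-7g-5p and let-7d-5p, and of let-7e-5p and miR-98-5p. Within each WT library let-7a-5p had more counts than let-7i-5p, let-7f-5p more than let-7b-5p and let-7e-5p more than miR-98-5p, whereas let-7g-5p and let-7d-5p changed places, with 687 and 371 counts in replicate 1 and 621 and 642 in replicate 2. The first 2 strands made up 29.5% ± 0.728 and 22.7% ± 0.750 of the family.

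The number of strands that passed the test differed widely between mutants. In R821E 6 of 9 fell and none rose, where 24.1% of all tested entries were called lower and 23.8% higher. In R821A 6 of 9 fell and none rose, where 2.94% of all entries were called lower and 0.267% higher. In E5 5 of 9 fell and none rose, where 6.68% were called lower and 2.41% higher. In A5 and in ΔPAZ helix edgeR called 0 of 9 (in each, 0.267% of all entries called lower and 0% higher), with 5 and 3 of 9 at an unadjusted p under 0.05, and DESeq2 called 1 in each. Without a test, 6 strands in E5 had both libraries below both WT libraries (23.8% of all entries), as did 5 for A5 (19.5%), 3 for ΔPAZ helix (20.9%), 8 for R821E (39.8%) and 6 for R821A (17.6%). Above both WT libraries lay 1 strand in ΔPAZ helix (20.6% of all entries) and 1 in R821E (34.8%), and none in E5 (21.9%), A5 (18.7%) or R821A (19%). The median log2 fold change of the 9 strands was -0.64 for E5, -0.52 for A5, -0.23 for ΔPAZ helix, -0.86 for R821E and -0.90 for R821A, and that of all 374 entries was 0.03, 0.00, 0.00, -0.10 and -0.02 in the same order. Without R821A replicate 1 the count in R821A was 1 and without E5 replicate 2 that in E5 was 1, let-7i-5p in both, and 3 without WT replicate 2. Without WT replicate 1 the count in A5 was 4 and that in ΔPAZ helix 1. Fitted on the 4 libraries compared alone, both counts were 0, while R821E kept 5.

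Relative to the spike-ins more strands were called lower in every mutant but R821A, where the number was the same. All 9 were called lower in R821E (60.4% of all entries), 7 in E5 (27.3%), 6 in A5 (14.7%), 4 in ΔPAZ helix (13.1%) and 6 in R821A (4.28%), and none was higher. The median log2 fold change of the 9 on this scale was -1.24 for E5, -0.98 for A5, -0.69 for ΔPAZ helix, -2.17 for R821E and -1.24 for R821A, and that of all entries -0.56, -0.46, -0.45, -1.38 and -0.35. How much spike-in went into a sample, and when, was not given in the sources used here. R821E libraries also stood apart in composition, with miR-21-5p at 54.0% to 58.0% of miRNA counts against 37.7% to 43.2% in WT, and a TMM factor of 0.714 and 0.804 against 0.990 to 1.15 in the other libraries. The part of this in the let-7 values was not tested.

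**Figure D2:**
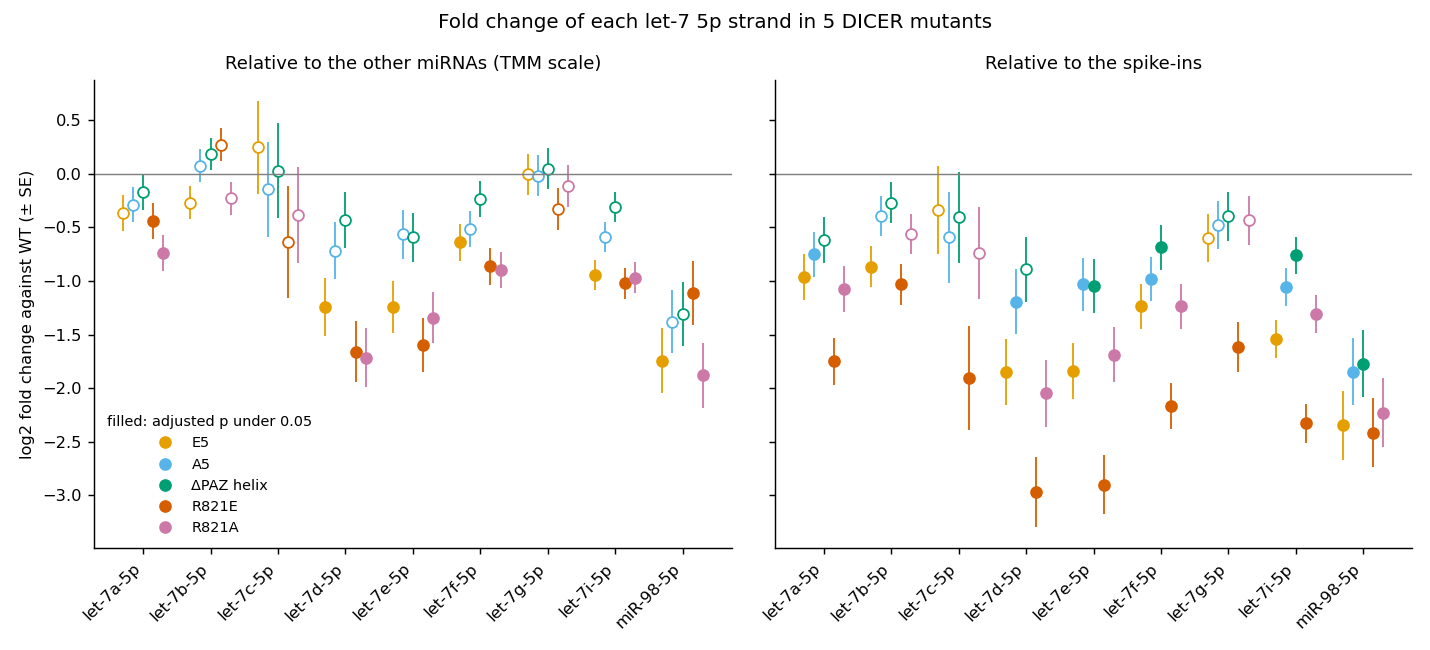
The log2 fold change against WT of each let-7 5p strand (horizontal axis) is drawn for 5 DICER mutants with its SE, on the TMM scale (left) and on the spike-in scale (right), filled where the adjusted p of edgeR was under 0.05. On the left let-7d-5p, let-7e-5p and miR-98-5p reach below -1 in E5, R821E and R821A while let-7b-5p and let-7g-5p stay within 0.33 of 0. On the right every point is below 0.

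Among group II strands, let-7i-5p had the narrowest error of the members that fell. Its libraries read 5344 and 6719 CPM for WT, 3211 and 3042 for E5, 3845 and 4156 for A5, 5017 and 4712 for ΔPAZ helix, 2810 and 3127 for R821E, and 3049 and 3114 for R821A. No mutant library overlapped WT, and the E5, R821E and R821A libraries sat close together at the low end. let-7i-5p fell in E5, R821E and R821A, with log2 fold changes of -0.95 ± 0.141 (SE; edgeR, adjusted p = 0.00199), -1.02 ± 0.142 (adjusted p = 1.16e-04) and -0.97 ± 0.141 (adjusted p = 0.00160). Its log2 fold change was -0.59 ± 0.140 in A5 (edgeR, adjusted p = 0.0865) and -0.31 ± 0.139 in ΔPAZ helix (adjusted p = 0.404).

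miR-98-5p, made from the HUWE1 intron together with let-7f-2, had the largest fall of the 9 strands in E5 and in R821A. It read 579 and 939 CPM for WT, 281 and 175 for E5, 259 and 320 for A5, 265 and 348 for ΔPAZ helix, 293 and 415 for R821E, and 200 and 211 for R821A. Every mutant library was below both WT libraries. It fell in E5, R821E and R821A, with log2 fold changes of -1.75 ± 0.304 (SE; edgeR, adjusted p = 0.00423), -1.11 ± 0.302 (adjusted p = 0.00808) and -1.88 ± 0.302 (adjusted p = 0.00230). The R821E call was lost without R821E replicate 1, at -0.87, and without WT replicate 2, at -0.78. The E5 call was lost without E5 replicate 2, at -1.43, and the R821A call without R821A replicate 1, at -1.84. On 4 libraries only, the E5 and R821A calls were lost (edgeR, adjusted p = 0.226 and 0.131) and the R821E call was kept (adjusted p = 0.0226). In A5 and ΔPAZ helix the log2 fold changes of -1.38 ± 0.294 and -1.31 ± 0.295 missed the threshold (edgeR, adjusted p = 0.0681 and 0.0747), and both passed by DESeq2 (adjusted p = 0.0150 and 0.0374, over a range of 2.28e-04 to 0.578 and 0.00176 to 0.577 across the alternatives tried).

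let-7d-5p, the member whose first base is A, fell in the same 3 mutants. It read 1286 and 2449 CPM for WT, 806 and 772 for E5, 1187 and 1083 for A5, 1449 and 1313 for ΔPAZ helix, 672 and 501 for R821E, and 470 and 671 for R821A. The ratio between the WT libraries was larger for let-7d-5p than for any other member, and both ΔPAZ helix libraries lay between them. Its log2 fold change was -1.24 ± 0.270 in E5 (edgeR, adjusted p = 0.0151), -1.66 ± 0.282 in R821E (adjusted p = 4.54e-04) and -1.72 ± 0.275 in R821A (adjusted p = 0.00230). Without WT replicate 2, the higher of the pair, the call in E5 was lost, at a log2 fold change of -0.74. It was also lost without E5 replicate 2, at -1.21, as was the R821A call without R821A replicate 1, at -1.48. On 4 libraries only, both were lost (edgeR, adjusted p = 0.226 in E5 and 0.131 in R821A) and the R821E call was kept (adjusted p = 0.00183).

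let-7f-5p, which 2 hairpins make, 1 beside let-7a-1 and 1 beside miR-98, fell in E5, R821E and R821A. It read 3103 and 4178 CPM for WT, 2582 and 2091 for E5, 2384 and 2697 for A5, 3136 and 3051 for ΔPAZ helix, 2120 and 1875 for R821E, and 1843 and 2058 for R821A. Only the ΔPAZ helix libraries overlapped WT. Its log2 fold change was -0.64 ± 0.169 in E5 (edgeR, adjusted p = 0.0320), -0.86 ± 0.172 in R821E (adjusted p = 0.00137) and -0.90 ± 0.170 in R821A (adjusted p = 0.00615). In E5 the call was lost without WT replicate 2, at -0.45, and without E5 replicate 2, at -0.50 (edgeR, adjusted p = 0.164 and 0.201). It was also lost with no filter on low counts (adjusted p = 0.0532) and on 4 libraries only (adjusted p = 0.321).

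let-7b-5p and let-7g-5p passed the test against WT in no mutant. let-7b-5p read 2736 and 3377 CPM for WT, 2798 and 2266 for E5, 3396 and 3043 for A5, 3478 and 3461 for ΔPAZ helix, 3647 and 3732 for R821E, and 2432 and 2783 for R821A. Its ΔPAZ helix and R821E libraries were above both WT libraries, the only member with this order. Its log2 fold change in R821E was 0.27 ± 0.154 (edgeR, adjusted p = 0.160) and took the other sign on the spike-in scale, at -1.03, and with total counts as the scale, at -0.27. let-7g-5p read 2382 and 2369 CPM for WT, 2340 and 2395 for E5, 2454 and 2241 for A5, 2538 and 2371 for ΔPAZ helix, 2321 and 1451 for R821E, and 1914 and 2480 for R821A. Its log2 fold changes ran from -0.33 ± 0.196 in R821E (edgeR, adjusted p = 0.183) to 0.05 ± 0.193 in ΔPAZ helix (adjusted p = 0.918). The R821E libraries of let-7g-5p lay apart, and the value there was -0.71 and passed without R821E replicate 1 (edgeR, adjusted p = 0.0198), but was -0.0336 without R821E replicate 2 (adjusted p = 0.899). With total counts as the scale it was -0.89 and passed (edgeR, adjusted p = 8.46e-04).

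Of the strands that group I alone makes, let-7e-5p carried most of the counts. It read 808 and 1106 CPM for WT, 430 and 380 for E5, 633 and 658 for A5, 684 and 581 for ΔPAZ helix, 244 and 397 for R821E, and 371 and 381 for R821A. All 10 mutant libraries were below both WT libraries. let-7e-5p fell in E5, R821E and R821A, with log2 fold changes of -1.24 ± 0.240 (SE; edgeR, adjusted p = 0.00961), -1.60 ± 0.255 (adjusted p = 2.76e-04) and -1.34 ± 0.239 (adjusted p = 0.00425), and its values of -0.57 in A5 and -0.59 in ΔPAZ helix did not pass (adjusted p = 0.266 and 0.299). On 4 libraries only, the calls in E5 and R821A were lost (edgeR, adjusted p = 0.226 and 0.131) and that in R821E was kept (adjusted p = 0.00231). With a library left out, the log2 fold change ran from -1.43 to -1.03 in E5 and from -1.55 to -1.15 in R821A. The E5 call was lost without E5 replicate 2, at -1.16, and the R821A call without R821A replicate 1, at -1.33.

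let-7c-5p, the other strand of group I alone, had the fewest counts of the 9 strands. It had 22 and 12 counts for WT, 11 and 20 for E5, 10 and 16 for A5, 14 and 12 for ΔPAZ helix, 7 and 4 for R821E, and 18 and 6 for R821A. The 3 counts that a count of 0 allows stand for 11.8 to 20.8 in 1000000 miRNA counts, and let-7c-5p was at 27.6 to 83.5 CPM. Its log2 fold changes, from -0.64 ± 0.523 for R821E to 0.25 ± 0.432 for E5, did not pass (edgeR, adjusted p = 0.330 and 0.767). Relative to the spike-ins it was called lower in R821E, at -1.91 (edgeR, adjusted p = 0.00367).

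let-7a-5p, which both groups make, read 6647 and 9069 CPM for WT, 6373 and 5813 for E5, 6179 and 6694 for A5, 7631 and 6351 for ΔPAZ helix, 6182 and 5364 for R821E, and 4265 and 5135 for R821A. The A5 and ΔPAZ helix libraries overlapped WT and the others did not. It fell in R821E and R821A, with log2 fold changes of -0.44 ± 0.168 (edgeR, adjusted p = 0.0422) and -0.74 ± 0.168 (adjusted p = 0.0212). Without WT replicate 2 both calls were lost, at -0.25 in R821E and -0.55 in R821A (edgeR, adjusted p = 0.228 and 0.104). The R821E call was also lost without R821E replicate 1, at -0.55, and without R821E replicate 2, at -0.35 (edgeR, adjusted p = 0.0767 and 0.236). DESeq2 did not call it, at -0.38 (adjusted p = 0.147), nor did edgeR with DESeq2's size factors (adjusted p = 0.0826) or on 4 libraries only (adjusted p = 0.189).

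Set against group II within the same library, the sum of let-7c-5p and let-7e-5p was lower in all 10 mutant libraries than in WT. This balance needs no scale between libraries, and is given without a test. It rests on 255 and 302 group I counts in WT and on 47, in an R821E library, to 191, in an A5 library, in the mutants. The error of counting in this ratio was not computed, and the A5 libraries lay nearest WT. let-7c-5p and let-7e-5p together gave 5.73 and 5.75 counts per 100 counts of the 6 group II strands in WT. The mutants gave 4.09 and 4.31 for E5, 5.05 and 5.31 for A5, 4.70 and 4.22 for ΔPAZ helix, 2.42 and 3.89 for R821E, and 4.39 and 3.61 for R821A. let-7e-5p alone, which carried most of these group I counts, was likewise lower in all 10 mutant libraries, at 5.24 and 5.52 in WT and 2.06 to 4.86 in the mutants. let-7c-5p alone did not, at 0.229 to 0.494 in WT and 0.243 to 0.777 in the mutants. let-7a-5p ran the other way in 8 of 10 mutant libraries, with 43.1 and 45.3 counts per 100 of group II in WT and 41.6 to 54.1 in the mutants. Group II strands differed among themselves. In R821A the log2 fold changes of miR-98-5p and let-7d-5p were -1.88 and -1.72, beyond let-7e-5p at -1.34. Those of let-7f-5p, let-7i-5p, let-7b-5p and let-7g-5p were -0.90, -0.97, -0.23 and -0.11. The log2 fold change of miR-98-5p was also below that of let-7e-5p in E5, A5 and ΔPAZ helix, but not in R821E. Within group II, let-7i-5p per 100 of let-7g-5p was likewise below WT in all 10 mutant libraries.

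Ratios between single strands are given without a test, 2 within group II and 2 against let-7a-5p. let-7i-5p and let-7g-5p, which differ from each other at 2 bases, gave 224 and 284 counts of let-7i-5p per 100 of let-7g-5p in WT and 121 to 215 in all 10 mutant libraries. let-7d-5p and let-7a-5p share the chromosome 9 cluster, although let-7a-5p is also made outside it, by let-7a-2 and let-7a-3. let-7d-5p gave 19.4 and 27.0 counts per 100 of let-7a-5p in WT against 9.34 to 20.7, with 9 of 10 mutant libraries below both. miR-98-5p gave 18.7 and 22.5 counts per 100 of let-7f-5p in WT against 8.38 to 22.1, again with 9 of 10 below both. let-7b-5p per 100 of let-7a-5p went the other way, from 41.2 and 37.2 in WT to 59.0 and 69.6 for R821E. let-7b-5p made up 11.5% ± 0.533 of the family in WT and 21.0% ± 1.55 in R821E (SD, n = 2). Because so few bases separate some members, reads moved from one to another in counting would change these ratios, and this was not tested.

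**Figure D3:**
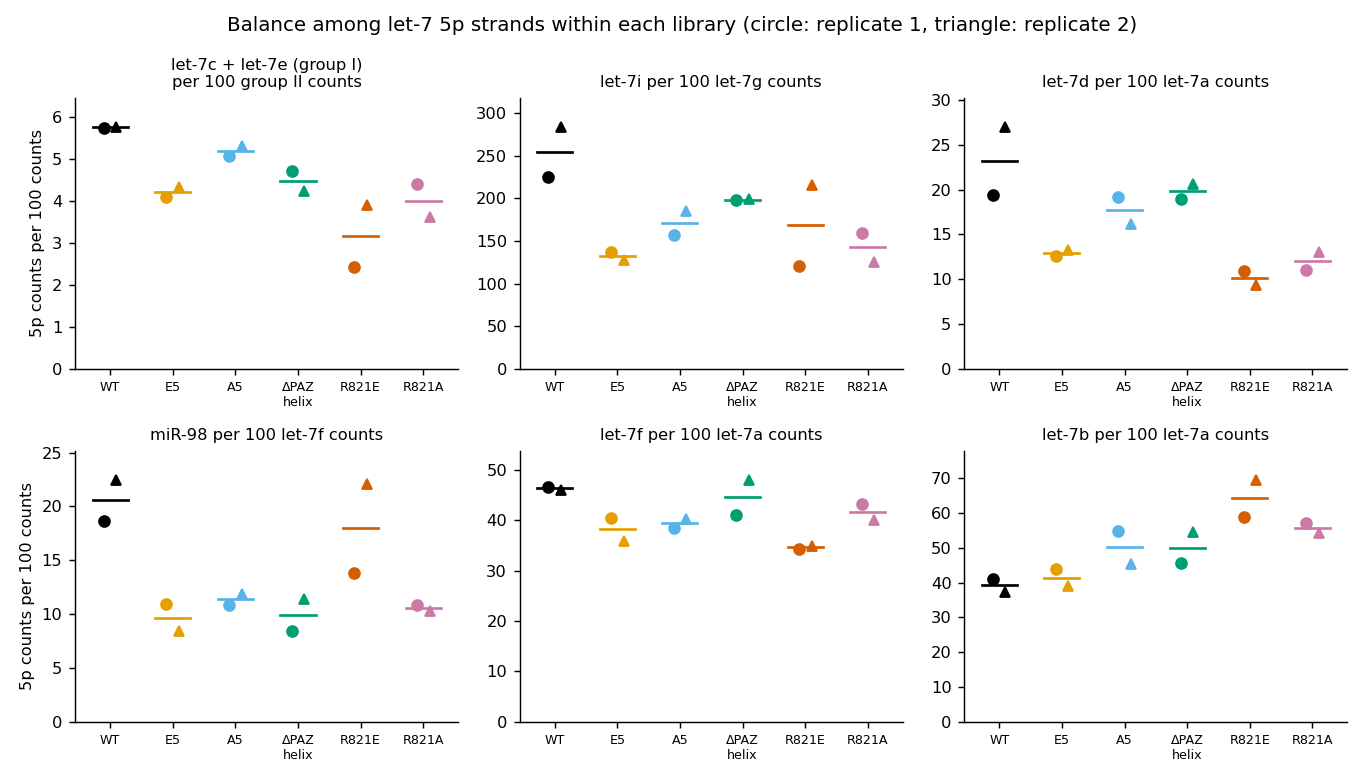
Ratios between let-7 strands within each library are plotted by DICER group, with a point for each of 2 libraries, a line for the mean and axes from 0 in counts per 100 counts. Group I strands per 100 group II counts lie at 5.73 and 5.75 in WT and between 2.42 and 5.31 in the mutants, and let-7i-5p per 100 let-7g-5p lies at 224 and 284 in WT and between 121 and 215 in the mutants.

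E5 and A5 were also compared with each other, as were the glutamate and alanine forms of R821. Between E5 and A5 edgeR called 0 of 9 strands (0% of all entries in either direction), with 3 at an unadjusted p under 0.05, and DESeq2 called 0. The libraries of let-7b-5p, let-7d-5p, let-7e-5p and let-7i-5p did not overlap and were lower in E5 (19.8% of all entries), with log2 fold changes of -0.35, -0.52, -0.68 and -0.36. Those of let-7c-5p did not overlap and were higher in E5, at 0.39 (18.2% of all entries). More strands passed against WT in E5 than in A5, but no strand was shown to differ between them.

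Between R821E and R821A edgeR called 1 of 9 strands, let-7b-5p, higher in R821E, with 21.9% of all entries called higher there and 19.5% lower. Its log2 fold change was 0.50 ± 0.155 (edgeR, adjusted p = 0.0208), and it took the other sign on the spike-in scale, at -0.47, and with total counts as the scale, at -0.01. The call was lost without R821E replicate 1, R821E replicate 2 or R821A replicate 1, at 0.52, 0.48 and 0.40 (edgeR, adjusted p = 0.0736, 0.0878 and 0.132), and with no filter, at 0.32 (adjusted p = 0.436). let-7a-5p at 0.30 and miR-98-5p at 0.77 did not pass (edgeR, adjusted p = 0.169 and 0.0716), although these 3 strands had libraries that did not overlap and lay higher in R821E (36.9% of all entries did, and 38.2% lay lower). On the spike-in scale the order turned, and 6 of 9 strands were called lower in R821E than in R821A, against 48.9% of all entries. Among them were let-7g-5p at -1.19 and let-7i-5p at -1.02.

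The ratio of the 5p strand to the 3p strand of a hairpin also cancels the scale between libraries. It could be tested with limma in 69 hairpins, of which 5, let-7a, let-7b, let-7d, let-7g and let-7i, belong to the family, and all 5 are of group II where their 3p strand is concerned. Arms were paired by name, and for let-7a the ratio is not that of a single hairpin. let-7a-5p is made by let-7a-1, let-7a-2 and let-7a-3, but let-7a-3p only by let-7a-1 and let-7a-3. The part of let-7a-2 in this ratio was not tested. The ratio of 5p to 3p counts of let-7a, with 0.5 added to each count, was 15.7 and 12.04 in WT, 8.28 and 9.71 for E5, 8.24 and 12.8 for A5, 8.50 and 8.59 for ΔPAZ helix, 4.01 and 3.31 for R821E, and 8.67 and 6.88 for R821A. The R821E libraries were lowest, and 1 A5 library lay between those of WT. In R821E 3 of 5 hairpins shifted toward the 3p strand, against 14.5% of the 69, and 1 of 5 toward the 5p strand, against 40.6%.

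let-7a shifted by -1.91 ± 0.235 on the log2 scale in R821E (limma, adjusted p = 7.34e-05), let-7b by -1.20 ± 0.342 (adjusted p = 0.0127) and let-7g by -1.14 ± 0.401 (adjusted p = 0.0307). let-7i shifted the other way, by 0.74 ± 0.276 (limma, adjusted p = 0.0372), and let-7d gave -0.10 ± 0.400 (adjusted p = 0.866). The median of the 5 was -1.14 and that of all 69 hairpins 0.40. The shift of let-7a passed in every alternative tried, while the count of 4 fell to 1 without R821E replicate 2 and to 1 without WT replicate 1. In these the let-7g shift was -0.66 without R821E replicate 2 and the let-7b shift -0.68 without WT replicate 1. The let-7i call was also lost without R821E replicate 1, at 0.57 (limma, adjusted p = 0.190), with a pseudocount of 2 (adjusted p = 0.0573), with a minimum of 5 counts (adjusted p = 0.0526) and on 4 libraries only (adjusted p = 0.158). In E5, A5, ΔPAZ helix and R821A limma called 0 of 5 (0% of the 69 toward the 3p strand in each, and 4.35%, 0%, 0% and 0% toward the 5p strand), with 1, 0, 1 and 2 at an unadjusted p under 0.05, and no other test was run on the ratio. let-7a stood at -0.61, -0.42, -0.68 and -0.83 in these 4 mutants.

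**Figure D4:**
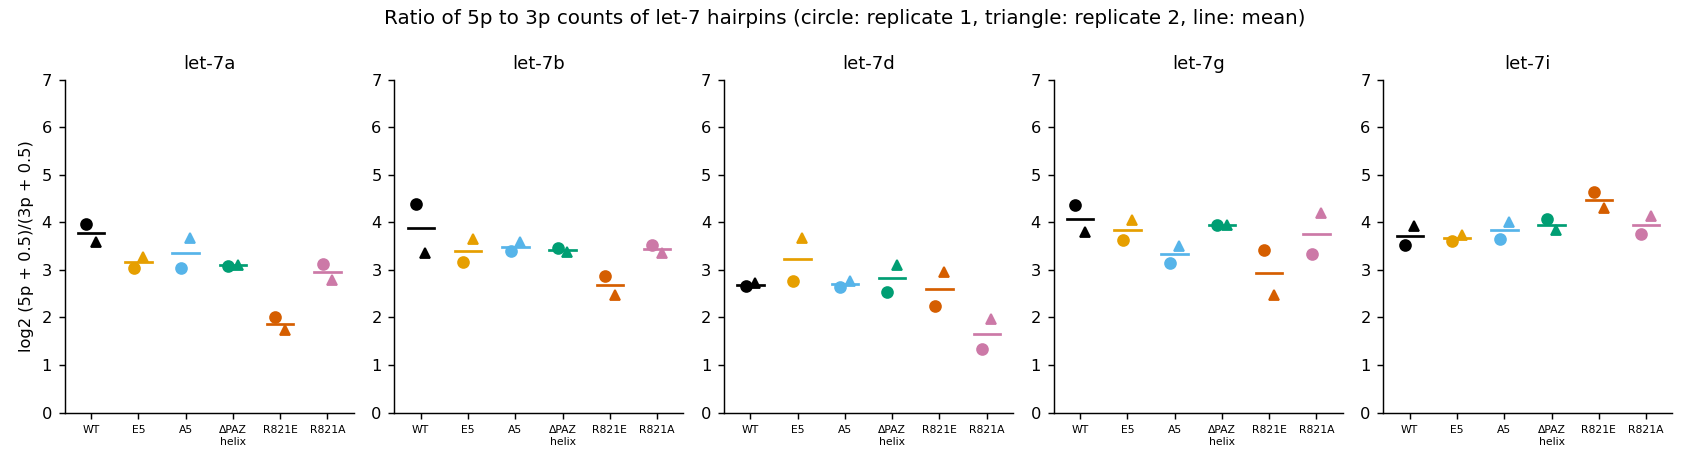
The log2 of (5p counts + 0.5)/(3p counts + 0.5) is plotted for 5 let-7 hairpins, paired by name, by DICER group, with a point for each of 2 libraries and a line for the mean. For let-7a the 5p counts include the output of let-7a-2, whose own 3p strand is not in the ratio. As ratios before the log, for let-7a the R821E libraries are at 4.01 and 3.31 against 15.7 and 12.04 in WT, and for let-7i they are at 24.9 and 19.6 against 11.5 and 15.1.

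The 3p strands themselves are mostly degraded in cells and were 10 of the 11 listed, all 10 tested. Those that fell and rose numbered 2 and 0 for E5, 0 and 0 for both A5 and ΔPAZ helix, 2 and 3 for R821E and 1 and 0 for R821A. The 2 and 3 of 10 in R821E are near the shares of all entries called there, 24.1% lower and 23.8% higher, while the shares in E5 were 6.68% and 2.41% and in R821A 2.94% and 0.267%. let-7a-3p had 122 and 197 counts in WT and 252 and 187 in R821E, and rose there by 1.43 on the log2 scale (edgeR, adjusted p = 0.00152). Relative to the spike-ins let-7a-3p stood at 0.12 in R821E, while let-7a-5p stood at -1.75 and was called lower. let-7b-3p and let-7f-2-3p rose by 1.34 and 1.37 in R821E (edgeR, adjusted p = 0.00946 and 0.00372), and relative to the spike-ins stood at 0.03 and 0.07. let-7i-3p had 133 and 116 counts in WT and 18 and 18 in R821E, and fell there and in E5 and R821A, at -1.79, -0.90 and -1.17 (edgeR, adjusted p = 2.00e-04, 0.0320 and 0.00913). let-7d-3p fell in E5 and R821E, at -1.74 and -1.44 (edgeR, adjusted p = 0.0266 and 0.0152). The 3p strand that group I let-7a-2 makes, named here after its values were seen, had 1 to 12 counts in a library, against 122 to 252 for let-7a-3p of let-7a-1 and let-7a-3.

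miRNAs on the same primary transcripts as the group I hairpins were compared with let-7e-5p, since miR-99b and miR-125a are cut from the same transcript. Of 11 listed strands, 9 were in the tables and 8 were tested, and the numbers that fell and rose were 1 and 1 for E5, 2 and 1 for R821E and 0 and 0 for A5, ΔPAZ helix and R821A. Of all entries, 24.1% were called lower and 23.8% higher in R821E, and 6.68% and 2.41% in E5, so the 2 of 8 that fell in R821E are near the background. miR-99b-5p had 527 and 335 counts in WT, 151 and 174 for E5, 77 and 69 for R821E and 437 and 256 for R821A. It fell in E5 and R821E, with log2 fold changes of -0.996 (edgeR, adjusted p = 0.0138) and -1.55 (adjusted p = 1.44e-04), and stood at -0.20 ± 0.206 in R821A (adjusted p = 0.850), where let-7e-5p was at -1.34. let-7e-5p per 100 counts of miR-99b-5p was 44.2 and 86.6 in WT and 24.3 and 32.4 in R821A, and the other 8 mutant libraries lay within the WT range. Per 100 counts of miR-125a-5p it was 110 and 100 in WT and lower in all 10 mutant libraries, at 28.8 to 96.2. miR-100-5p, beside let-7a-2, rose by 0.51 in E5 and by 1.27 in R821E (edgeR, adjusted p = 0.0312 and 1.28e-05), and relative to the spike-ins stood at -0.0740 and -0.0220. miR-99b-3p fell in R821E, at -1.86 (edgeR, adjusted p = 0.0143), and miR-125b-5p passed in no mutant, at 0.47 in E5 and 0.32 in R821E (adjusted p = 0.540 and 0.550).

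Among 235 entries outside the family with a mean of at least 100 CPM, those whose pattern over the 12 libraries was most like that of the summed family were miR-26b-5p, miR-7-5p, miR-590-3p, miR-339-3p and miR-30a-5p. The measure was the root-mean-square difference of centred log2 CPM, and it was 0.185, 0.198, 0.238, 0.246 and 0.247, against 0.275 for an entry that does not vary. miR-26b-5p and miR-7-5p fell in R821E, with log2 fold changes of -0.45 and -0.59 (edgeR, adjusted p = 0.0178 and 0.00426), where 24.1% of all entries were called lower. None of the 5 was called in E5, A5, ΔPAZ helix or R821A. Within the family let-7a-5p (0.0856), let-7f-5p (0.101) and let-7i-5p (0.163), which are part of the sum, were closest to it, and miR-98-5p (0.474) and let-7c-5p (0.470) farthest.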

How the data were processed

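Small RNA of 12 libraries was read from tables of raw counts per miRNA that the authors deposited, 1 per library. Per the submitters' processing notes, cutadapt, BWA, bedtools, hg38 and mm10 were used. Their versions, roles and the handling of reads that match several miRNAs were not given in the sources used here. Rows of the 30 spike-ins entered neither library sizes nor tests.

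Counts were tested with edgeR 4.0.16 in R 4.3.3 (robust quasi-likelihood, TMM factors, filterByExpr, 1 mean per group, 6 residual degrees of freedom), over 374 entries that held 99.6% of the miRNA counts, with Benjamini-Hochberg adjustment over all of them. The spike-in scale used the total spike-in count as library size. Arm ratios were tested with limma 3.58.1 on log2((5p + 0.5)/(3p + 0.5)) in hairpins whose 2 arms each averaged 20 counts or more. Likeness used log2(CPM + 2). Both tests were tested on simulated data. Depth was 144067 to 255296 miRNA counts per library, so 3 counts stand for 11.8 to 20.8 in 1000000 counts.

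All 9 members are named, with the 5 entries of most similar pattern. Entries named from a list of related miRNAs come from its 5 highest in WT, unless said otherwise. The lists were let-7 3p strands, miRNAs of the same transcripts, and other miRNAs with the let-7 seed or one close to it, of which 3 were listed, 1 was in the tables and 0 were tested. Members and lists were chosen with earlier results of these data known. Alternatives were the scale, DESeq2 1.42.0, no filter, 4 libraries only, a replicate block, the pseudocount and count minimum of the arm ratio, and leaving out each library. Replicates of a group differed beyond sampling noise in all 6 groups.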

Additional observations from a re-analysis of the deposited data

How the results depend on the processing

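The number of let-7 5p strands called in E5 against WT, 5, was 0 with the 4 libraries compared alone and 1 to 5 with a library left out. In A5, 0 became 6 on the spike-in scale, 1 with total counts, 1 by DESeq2, 1 with no filter, and 0 to 4 with a library left out (4 without WT replicate 1). In ΔPAZ helix, 0 became 4 on the spike-in scale, 1 with total counts, 1 by DESeq2, 1 with no filter, and 0 to 1 with a library left out. In R821E the 6 stayed within 5 to 9, and within 4 to 6 with a library left out. In R821A, 6 became 0 with 4 libraries only and 1 to 6 with a library left out. Between E5 and A5 the count was 0 throughout. Between R821E and R821A, 1 became 6 on the spike-in scale, 4 with total counts, 0 with no filter, and 0 to 1 with a library left out. Fits on 4 libraries leave 2 residual degrees of freedom, and a group of 1 library is assumed to vary like the others. The count of shifted arm ratios in R821E, 4, became 1 where each arm averaged 100 counts or more and 1 to 4 with a library left out, and that in R821A became 1 under that minimum.

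Replicate numbers did not pair the libraries: over 15 pairs of groups the correlation of replicate differences ran from -0.47 to 0.33, median -0.04, with 1 above 0.1. With a replicate block the counts were 4 in E5, 5 in R821E, 6 in R821A, 1 between R821E and R821A and 4 shifted arm ratios in R821E. Under the block let-7f-5p in E5 and let-7a-5p in R821E missed the threshold (edgeR, adjusted p = 0.0599 and 0.0619).

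Signs turned for strands that had not passed, except for let-7b-5p between R821E and R821A. On the spike-in scale let-7c-5p gave -0.34 in E5 and -0.41 in ΔPAZ helix, let-7b-5p -0.39 in A5, -0.27 in ΔPAZ helix and -1.03 in R821E, and let-7g-5p -0.40 in ΔPAZ helix. With total counts they were -0.10 for let-7c-5p and -0.0708 for let-7g-5p in ΔPAZ helix and -0.27 for let-7b-5p in R821E. let-7g-5p in E5 gave 0.0395 with DESeq2 size factors, 0.0396 by DESeq2 and 0.0156 with no filter. Between R821E and R821A the spike-in scale and total counts gave -0.68 and -0.22 for let-7a-5p and -0.47 and -0.0139 for let-7b-5p, which had passed, and the spike-in scale gave -0.19 for miR-98-5p. let-7d-5p and let-7f-5p also turned there, from 0.06 and 0.04 to -0.92 and -0.93 on the spike-in scale. Both were called lower on it (edgeR, adjusted p = 0.0320 and 0.00232). The 9 strands summed to 1 entry, on scales chosen after seeing the data, gave -0.81 and -0.35 there against 0.16 on the TMM scale. With a library left out, the log2 fold change ran from -0.0439 to 0.0258 for let-7g-5p and -0.0949 to 0.70 for let-7c-5p in E5, from -0.10 to 0.15 for let-7b-5p, -0.11 to 0.0465 for let-7g-5p and -0.54 to 0.25 for let-7c-5p in A5, from -0.35 to 0.44 for let-7c-5p, -0.0304 to 0.10 for let-7g-5p, -0.38 to 0.00139 for let-7a-5p and -0.84 to 0.0315 for let-7d-5p in ΔPAZ helix, and from -0.31 to 0.0514 for let-7g-5p and -1.15 to 0.0443 for let-7c-5p in R821A. The let-7d arm shift in R821E ran from -0.46 to 0.27. Of 680 recomputed values for single strands, their arm ratios and the summed entry, 560 kept direction and side of the threshold. Where no value above shows the cause of a change, the cause was not tested.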
